A study of Mus musculus with 4 samples.

Results

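The genes described here are 34 markers of the B lineage, 23 of B cells and 11 of plasma cells, chosen by name. Every probe that was no control and that carried one of these names was used, which gave 61 probes, and 34 of the 34 genes had at least 1, among 37311 gene names on the array. RNA was measured on 1-colour microarrays, in which dye-labelled RNA binds spotted probes and the brightness of a spot is the signal. The mice carried DAO G181R on both copies (DAOG181R/G181R) or wild-type DAO (DAOwt/wt). DAO encodes D-amino acid oxidase, and G181R is known as an allele that abolishes most of its activity. Both genotypes were Tcrbd-/-, without T cell receptor beta and delta chains, on the C57BL/6J background and 9 weeks old. The epithelium of ileum and of jejunum was scraped off mechanically. The 4 groups were G181R ileum, wild-type ileum, G181R jejunum and wild-type jejunum. Each was 1 array of RNA mixed from 5 mice, so there was no replicate, no spread between animals and no test. Whether the ileum and jejunum of a genotype came from the same mice was not stated.

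B cells carry IgM and IgD in their membrane, joined to the signalling chains CD79A and CD79B, and in the small intestine they gather in Peyer's patches and in isolated lymphoid follicles. Plasma cells have lost most of that surface machinery. They sit below the epithelium and secrete antibody, mainly IgA joined by the J chain, and in mice without T cells this IgA is made without T cell help. Scraped epithelium can hold both cell types, and in such bulk samples fewer cells of a type and less RNA per cell cannot be told apart.

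In ileum, most genes of both lists had a higher signal in G181R than in wild-type. In jejunum most B cell genes were lower in G181R, Ms4a1, Ighd, Tnfrsf13c, Cr2 and Fcmr most of all, while most plasma cell genes were slightly higher. A level is the log2 signal of a gene's brightest probe minus the array's 75th percentile. A difference is given as measured where the scanner software marked that probe as well above background on each of the arrays compared. Of 22 measured B cell genes, 20 were above 0 in ileum (53.2% of 21603 genes were), and the median difference, G181R minus wild-type, was 0.60, against 0.03 over all genes. Of 10 measured plasma cell genes, 9 were above 0, with a median of 0.64. In jejunum, 14 of 19 measured B cell genes were below 0 (51.7% of 21351 genes were), with a median of -0.33, against -0.01 over all genes. Of 9 measured plasma cell genes, 7 were above 0 (48.3% of all genes were), with a median of 0.11. At least 2-fold lower in G181R jejunum were 6 of the 19 B cell genes, against 0.749% of all measured genes and 1.14% of those with a mean signal under 100. No plasma cell gene was 2-fold lower. At least 2-fold higher in G181R ileum were 1 B cell gene (Ighd) and 2 genes of the plasma cell list, against 2.0% of all measured genes. These 2 were Fkbp11 and Cd38, which many cell types carry. At least 1.5-fold higher there were 11 B cell and 5 plasma cell genes, against 6.79% of all. No member was at least 2-fold higher in G181R jejunum (0.763% of all measured genes were) or at least 2-fold lower in G181R ileum (3.21% were). Of the genes measured in both tissues, 13 of 19 B cell genes were higher in G181R ileum and lower in G181R jejunum. So were 2 of 9 plasma cell genes (Ighg2c and Tnfrsf13b), against 17.8% of the 20540 genes measured in both. In 10 of these 28 members the 2 differences also lay more than 1 apart, against 1.27% of those genes.

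**Figure D1:**
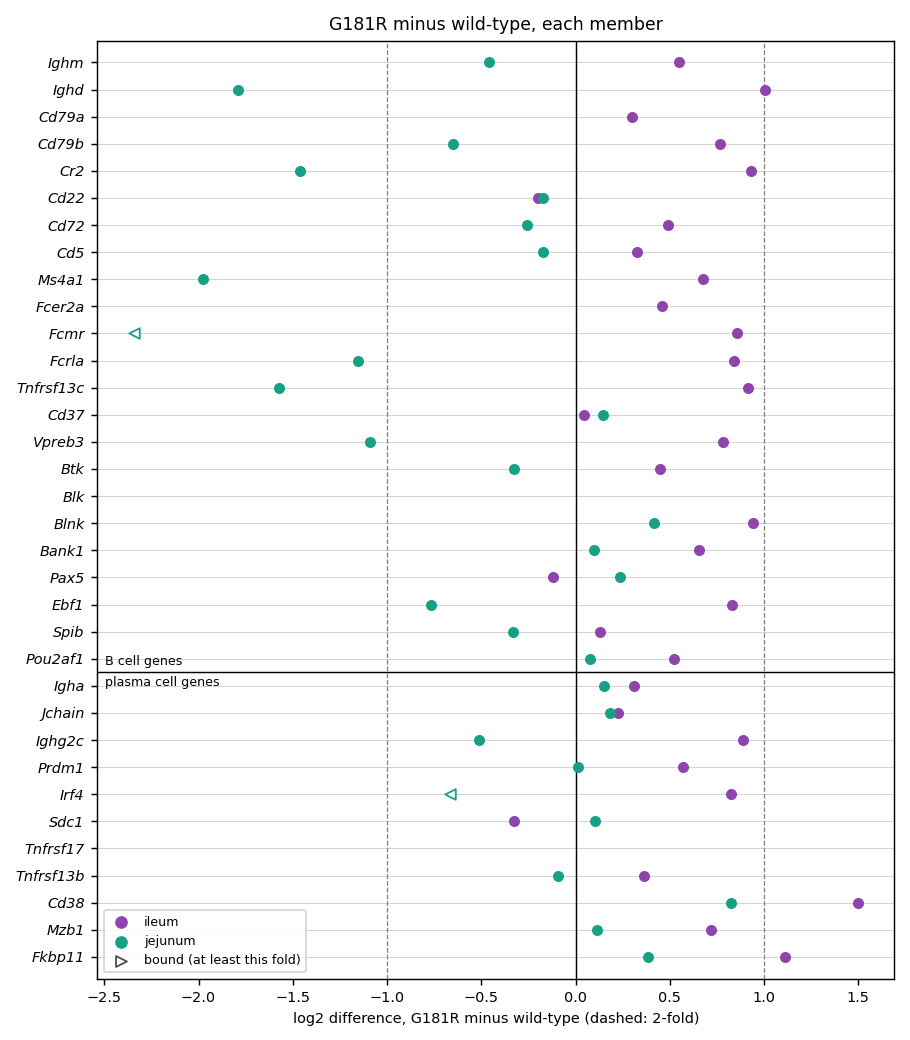
Each point is the log2 difference in signal, G181R minus wild-type, of a member's brightest probe (1 array per group), in ileum (purple) and in jejunum (green). Open triangles are bounds, where the probe was well above background on 1 of the 2 arrays. In ileum 29 of 32 measured members lie right of 0, and in jejunum 14 of 19 measured B cell genes lie left of 0 and 7 of 9 plasma cell genes lie right of it.

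Between 57.4% and 60.4% of 56605 probes were well above background, the 75th percentile of the signal lay between 156.1 and 184.8, and no probe was saturated. The lowest signal well above background was between 5.83 and 7.36. For 300 probes printed 10 times each, replicate spots gave a log2 difference between arrays with an SD of 0.0566 to 0.0585 (median over probes). This is a spread of spots and not of mice or pools. The 95th percentile over probes was 0.109 to 0.117. A probe for Ighg2b, dim in jejunum, spread more there, with a log2 SD within an array of 0.24 in G181R and 0.16 in wild-type. The median SD thus need not hold for dim members. Of the 34 genes, 28 were well above background on 4 arrays, 4 on some (Cd79a, Fcer2a, Fcmr and Irf4) and 2 on none (Blk, a Src-family kinase of B cells, and Tnfrsf17, which encodes BCMA, the plasma cell survival receptor).

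The classes of antibody heavy chain had different signs in jejunum. These 6 probes are shown because they read 6 classes within the constant-region genes of chromosome 12 and lie on the minus strand (mm9). Each also has at least 1 reading frame without a stop codon over its 60 bases. Whether that frame is the coding one was not tested. The longest run that any 2 of the 6 shared was 8 bases.
Ighm, chr12:114659630-114659689: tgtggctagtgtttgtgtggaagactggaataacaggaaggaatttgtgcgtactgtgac
Ighd, chr12:114654277-114654336: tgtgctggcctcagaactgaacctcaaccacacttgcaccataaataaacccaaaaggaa
Ighg3, chr12:114597942-114598001: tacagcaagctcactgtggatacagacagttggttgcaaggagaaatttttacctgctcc
Ighg2b, chr12:114544738-114544797: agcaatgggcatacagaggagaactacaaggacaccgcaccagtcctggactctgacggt
Ighg2c, chr12:114525600-114525659: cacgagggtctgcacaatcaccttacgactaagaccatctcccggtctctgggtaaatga
Igha, chr12:114496985-114497044: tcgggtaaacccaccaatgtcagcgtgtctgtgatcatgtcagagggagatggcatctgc

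The Ighm probe, for the mu chain of IgM, had a signal of 239.7 in G181R ileum and 178.5 in wild-type ileum, and of 38.4 in G181R jejunum and 57.8 in wild-type jejunum. The Ighd probe, for the delta chain of naive B cells, had 131.9 in G181R ileum and 70.5 in wild-type ileum, and 5.79, not well above background, in G181R jejunum against 18.0 in wild-type jejunum. The Igha probe, for the alpha chain of IgA, had 34216 in G181R ileum and 29135 in wild-type ileum, and 23746 in G181R jejunum and 20902 in wild-type jejunum. Mu and delta were thus lower in G181R than in wild-type jejunum and alpha was not. As log2 differences, G181R minus wild-type, mu stood at 0.50 in ileum and -0.62 in jejunum, and alpha at 0.31 in ileum and 0.15 in jejunum. Delta stood at 0.98 in ileum and was at least 3.15-fold lower in G181R jejunum.

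The Ighg2b and Ighg2c probes had the same signs as the mu probe. The printed Ighg2c probe had 64.9 in G181R ileum and 36.3 in wild-type ileum, and 15.3 in G181R jejunum and 21.2 in wild-type jejunum, log2 differences of 0.92 and -0.51. The probe for Ighg2b, which is no member, was printed 10 times and averaged 97.9 ± 7.13 in G181R ileum and 65.0 ± 5.78 in wild-type ileum (SD, n = 10 spots). In jejunum it averaged 12.7 ± 2.21 in G181R and 16.4 ± 1.83 in wild-type. The SD is over spots of 1 hybridisation and holds no spread between mice or pools. The brightest Ighg2c probe, at chr12:114525496-114525555, is assigned by the array design to the Ighg2b transcript as well, so its 235.7 in G181R ileum and 134.2 in wild-type ileum, and its 26.5 in G181R jejunum and 36.9 in wild-type jejunum, may hold both. Its differences were 0.89 and -0.51. The printed Ighg3 probe, picked after its values were seen, had 71.3 in G181R ileum and 53.6 in wild-type ileum and was not well above background in jejunum. A brighter Ighg3 probe, assigned to another transcript, stood at 0.21 in both tissues.

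The mu chain is made in a secreted and a membrane form from alternative 3′ ends of 1 gene, and 2 further probes read Ighm. The brightest, at chr12:114658982-114659041, had 2403 in G181R ileum and 1735 in wild-type ileum, and 509.2 in G181R jejunum and 684.5 in wild-type jejunum, log2 differences of 0.55 and -0.46. The other lies further along the gene at chr12:114656770-114656829 and is assigned to another transcript. It had 956.5 in G181R ileum and 605.5 in wild-type ileum, and 116.0 in G181R jejunum and 207.2 in wild-type jejunum, differences of 0.74 and -0.87. The 3 Ighm probes thus had the same sign in each tissue, with a span of 0.24 in ileum and 0.41 in jejunum. Which form each probe reads was not tested.

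Among the other genes of the B cell receptor and its co-receptors, none measured was higher in G181R jejunum. With Ighm 8 of 8 were lower, against 51.7% of all genes. Ighd, at its brightest probe (chr12:114644823-114644882), had 740.5 in G181R ileum and 389.9 in wild-type ileum, and 22.6 in G181R jejunum and 76.4 in wild-type jejunum, differences of 1.0 and -1.79. Ms4a1, which encodes the surface protein CD20 (chr19:11325409-11325468), had 320.4 in G181R ileum and 211.3 in wild-type ileum, and 9.67 in G181R jejunum and 37.2 in wild-type jejunum, differences of 0.68 and -1.98. Cr2, which encodes the complement receptor CD21 of mature B cells (chr1:196965532-196965591), had 430.1 in G181R ileum and 238.2 in wild-type ileum, and 22.4 in G181R jejunum and 60.5 in wild-type jejunum, differences of 0.93 and -1.46. For these 3 genes G181R ileum had the highest signal of the 4 arrays and G181R jejunum the lowest.

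Of the signalling chains, Cd79b differed less than Ighd, Ms4a1 and Cr2 in jejunum, though not less than Ms4a1 in ileum. Cd79b had 664.6 in G181R ileum and 412.1 in wild-type ileum, and 76.3 in G181R jejunum and 117.0 in wild-type jejunum, differences of 0.77 and -0.65. Cd79a had 26.1 in G181R ileum and 22.4 in wild-type ileum, a difference of 0.30. In jejunum Cd79a had 6.23 in G181R and 6.74, not well above background, in wild-type, so no fold is given. Of the inhibitory co-receptors, Cd72 stood at 0.49 in ileum and -0.25 in jejunum, Cd5 at 0.32 and -0.17, and Cd22 at -0.20 and -0.17.

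The surface receptors for antibody Fc and for survival factors held further jejunal differences past 2-fold. Fcmr, the Fc receptor for IgM (chr1:132777256-132777315), had 296.0 in G181R ileum and 172.4 in wild-type ileum, a difference of 0.86. In jejunum it had 6.06, not well above background, in G181R and 30.1 in wild-type, and was at least 5.08-fold lower in G181R. The G181R signal in jejunum was at the limit of detection, so the fold is a lower bound. Tnfrsf13c, which encodes the receptor for the survival factor BAFF (chr15:82052225-82052284), had 220.7 in G181R ileum and 123.4 in wild-type ileum, and 8.65 in G181R jejunum and 25.2 in wild-type jejunum, differences of 0.92 and -1.57. Fcrla, an Fc receptor-like protein kept inside B cells, had 66.8 in G181R ileum and 39.4 in wild-type ileum, and 7.07 in G181R jejunum and 15.4 in wild-type jejunum, differences of 0.84 and -1.16. The order of the 4 arrays was the same as for Ms4a1, Cr2 and Ighd. Fcer2a, the low-affinity IgE receptor CD23, was well above background in ileum alone, with 48.3 in G181R and 37.1 in wild-type (0.46). Its other probe had 10.03 in G181R ileum and 9.92 in wild-type ileum, and 15.4 in G181R jejunum and 11.3 in wild-type jejunum, differences of 0.09 and 0.41, so it did not share the pattern. Cd37, a tetraspanin of many leukocytes, stood at 0.05 in ileum and 0.14 in jejunum.

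Vpreb3, a B lineage protein that binds immunoglobulin chains inside the cell, had 273.5 in G181R ileum and 167.8 in wild-type ileum, and 20.6 in G181R jejunum and 42.9 in wild-type jejunum, differences of 0.78 and -1.09. Its promoter is shown because it holds the octamer ATTTGCAT, in capitals, a motif bound by OCT factors with the coactivator that Pou2af1 encodes. The sequence is RefSeq's for GRCm38.p6, chr10:75948050-75948349 on the plus strand, and the octamer begins 45 bases before the start of transcription.
Vpreb3 promoter: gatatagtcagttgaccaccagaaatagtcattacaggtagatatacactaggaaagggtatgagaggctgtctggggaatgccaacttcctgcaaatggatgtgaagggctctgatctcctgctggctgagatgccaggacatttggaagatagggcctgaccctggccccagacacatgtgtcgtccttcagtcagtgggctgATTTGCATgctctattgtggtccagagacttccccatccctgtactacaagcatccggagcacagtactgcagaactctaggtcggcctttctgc
Of the 34 genes, 26 had a promoter in that table, and the octamer on either strand was found in 2 of them (Vpreb3 and Blnk), against 1.97% of 27025 genes. GAGGAAGT, a PU.1 type motif, was found in 3 (Cd72, Cd5 and Cd37), against 3.69%, and CCCNNGGG, the core of the EBF1 site, in 4 (Cd22, Bank1, Spib and Sdc1), against 15.4%. A match describes the letters of these 300 bases and not a bound site.

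The genes of signalling below the receptor and of B lineage transcription had both signs in jejunum, from -0.77 for Ebf1 to 0.42 for Blnk. Blnk, the adaptor that links the receptor to its kinases, had 5218 in G181R ileum and 2871 in wild-type ileum, and 4379 in G181R jejunum and 3200 in wild-type jejunum, differences of 0.94 and 0.42. In jejunum Blnk was far brighter than Ms4a1 (9.67 in G181R and 37.2 in wild-type). Which cells gave the Blnk signal was not tested. Bank1, another adaptor, stood at 0.66 in ileum and 0.10 in jejunum, and Btk, a kinase of the receptor, at 0.45 and -0.33. Ebf1, an early B lineage factor, had 67.8 in G181R ileum and 40.2 in wild-type ileum, and 11.4 in G181R jejunum and 19.0 in wild-type jejunum, differences of 0.83 and -0.77. Pou2af1, a coactivator of immunoglobulin genes, stood at 0.52 in ileum and 0.08 in jejunum. Spib, a factor of B cells and also of epithelial M cells, stood at 0.13 and -0.33. Pax5, the factor that holds B cell identity and is lost in plasma cells, stood at -0.12 and 0.23.

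**Figure D2:**
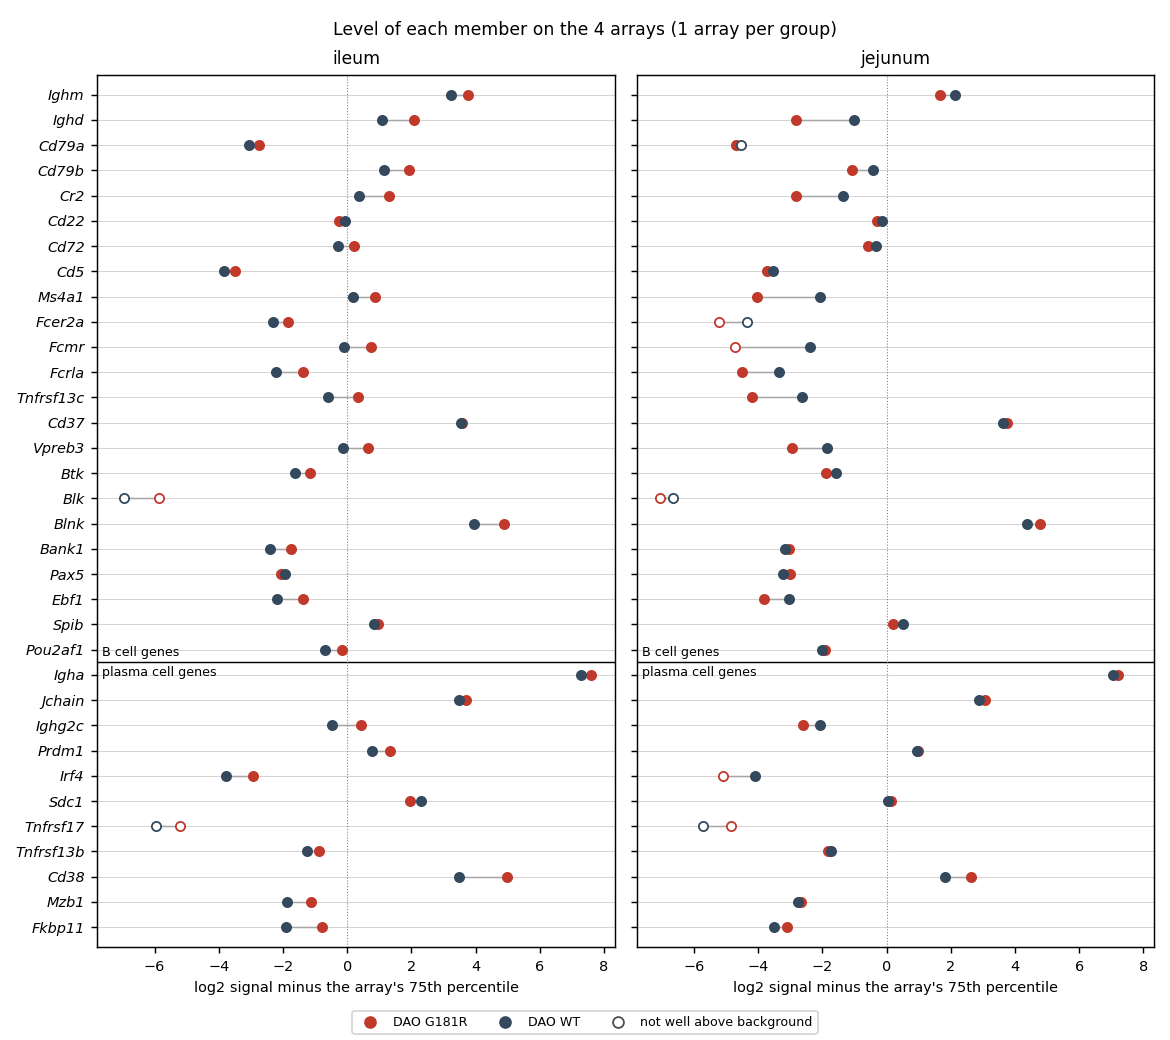
Level of each member on the 4 arrays, as log2 signal minus the array's 75th percentile, with ileum on the left, jejunum on the right, G181R in red and wild-type in dark blue. Open circles were not well above background. In jejunum the widest gaps between genotypes are those of Ms4a1, Ighd, Cr2, Fcmr and Tnfrsf13c, with G181R lower, and Igha and Jchain lie close together in both tissues.

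Of the plasma cell genes, those of secreted IgA differed little between genotypes. Jchain, the J chain that joins IgA and IgM units, had 2293 in G181R ileum and 2073 in wild-type ileum, and 1334 in G181R jejunum and 1149 in wild-type jejunum, differences of 0.22 and 0.18. Prdm1, which encodes BLIMP-1, the factor that drives plasma cell formation, had 445.0 in G181R ileum and 316.6 in wild-type ileum, and 313.5 in G181R jejunum and 303.1 in wild-type jejunum, differences of 0.57 and 0.02. Igha, Jchain and Prdm1 thus lay close to wild-type in jejunum. Irf4, a factor needed for plasma cells and also induced in activated B cells, had 22.9 in G181R ileum and 13.6 in wild-type ileum, a difference of 0.83. In jejunum Irf4 had 4.67, not well above background, in G181R and 9.04 in wild-type, and was at least 1.59-fold lower in G181R.

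The surface and secretory genes of plasma cells were mostly higher in G181R ileum. Cd38, an enzyme at the cell surface that consumes NAD and that many cell types carry, had 5493 in G181R ileum and 2050 in wild-type ileum, and 996.9 in G181R jejunum and 550.6 in wild-type jejunum, differences of 1.5 and 0.82. Fkbp11, a folding enzyme of secretory cells, had 100.7 in G181R ileum and 49.1 in wild-type ileum, and 18.4 in G181R jejunum and 13.8 in wild-type jejunum, differences of 1.11 and 0.39. Mzb1, a chaperone of antibody assembly, had 79.5 in G181R ileum and 50.9 in wild-type ileum, and 25.2 in G181R jejunum and 22.8 in wild-type jejunum, differences of 0.72 and 0.11. Cd38 and Fkbp11 had the largest ileal differences of the 34 genes at their brightest probes. Cd38 was far brighter than Mzb1 on each array, and which cells gave the Cd38 signal was not tested. Tnfrsf13b, which encodes the survival factor receptor TACI, stood at 0.36 in ileum and -0.09 in jejunum. A dimmer Tnfrsf13b probe, well above background on 4 arrays, gave 0.55 and 0.23, so the jejunal sign depended on the probe. Sdc1, which encodes the plasma cell marker CD138 and is also made by epithelium, had 684.6 in G181R ileum and 906.7 in wild-type ileum, a difference of -0.33, and stood at 0.10 in jejunum.

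Members read by several probes agreed in part. For Ms4a1, a probe further along the gene (chr19:11324334-11324393) had 16.4 in G181R ileum and 17.9 in wild-type ileum, and 15.8 in G181R jejunum and 29.0 in wild-type jejunum, differences of -0.05 and -0.91. It did not show the ileal difference, and its jejunal one was under 2-fold. The 2 other probes of Cr2 gave 0.71 and 1.01 in ileum, and the one measured in jejunum gave -0.96 there. Cd22 and Cd37 had dimmer probes that were higher in G181R ileum, at 0.59 for Cd22 and at 0.42 and 0.75 for Cd37. For Pax5, a dimmer probe with 23.3 in G181R ileum and 11.3 in wild-type ileum gave 1.12, against -0.12 at the brightest. A second Irf4 probe was well above background in G181R ileum alone, with 25.7, and was at least 3.78-fold higher there than in wild-type ileum. The second Tnfrsf13c probe was well above background in wild-type ileum alone, with 11.9, and was at least 1.85-fold lower in G181R.

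**Figure D3:**
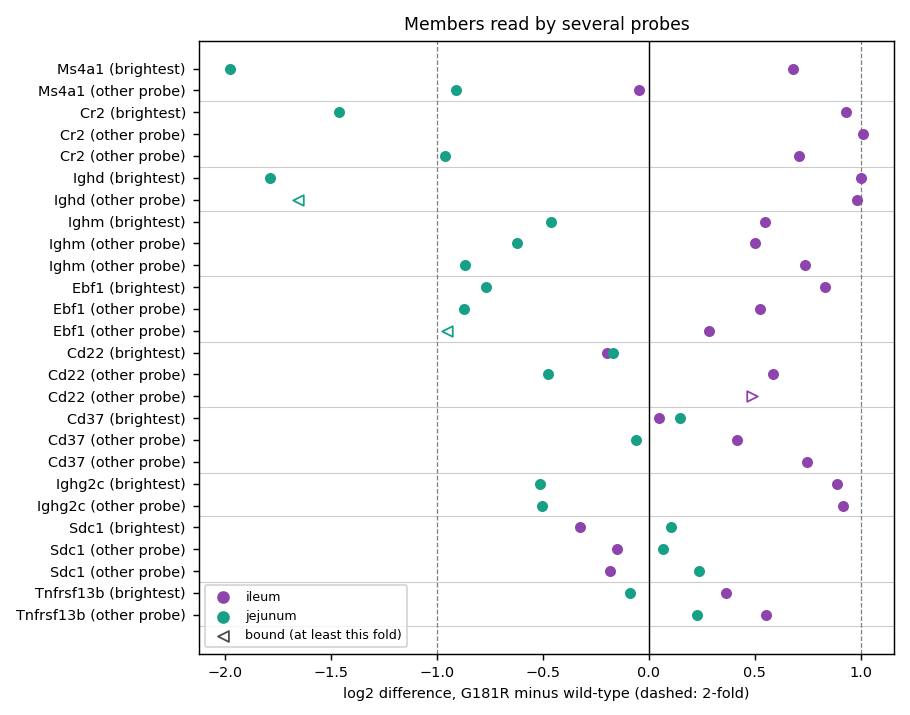
Log2 difference in signal, G181R minus wild-type, at each probe of 10 members, in ileum (purple) and in jejunum (green), for probes well above background on at least 1 array. The probes of Ighd, Ighm, Cr2, Ebf1 and Ighg2c share their sign within a tissue, while the other probe of Ms4a1 lies near 0 in ileum and those of Cd22 and Cd37 lie right of the brightest one there. The probes of Tnfrsf13b lie on both sides of 0 in jejunum.

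Ileum and jejunum were then set against each other within each genotype. These comparisons use the same 4 arrays as those of genotype and are no independent evidence of them. Ileum was higher than jejunum for 19 of 20 measured B cell genes in G181R (48.0% of 21601 genes were), with a median log2 difference, ileum minus jejunum, of 1.85, and for 16 of 20 in wild-type (46.6% of 20875 genes were), with a median of 1.1. At least 2-fold higher in ileum were 12 of 20 in G181R, against 7.30% of all measured genes, and 11 of 20 in wild-type, against 7.41%. Ms4a1 stood at 4.92 in G181R and 2.26 in wild-type, Ighd at 4.90 and 2.11, Tnfrsf13c at 4.54 and 2.05, and Cr2 at 4.13 and 1.73. Fcmr was at least 44.6-fold higher in ileum in G181R and stood at 2.28 in wild-type. These 5 genes thus had a regional gap in wild-type mice, and the gap was wider in G181R mice. The other probe of Ms4a1 did not show it, at -0.08 in G181R and -0.94 in wild-type. The other Cr2 probe measured in jejunum stood at 2.17 in G181R and 0.50 in wild-type, and 1 other Ebf1 probe at 1.07 and -0.32, against 2.44 and 0.84 at the brightest. Cd22, Cd37 and Blnk stood between -0.17 and 0.12 in G181R and between -0.40 and 0.07 in wild-type at their brightest probes, while dimmer probes stood at 1.57 and 0.51 for Cd22 and at 1.08 and 0.61 for Cd37.

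Plasma cell genes had the same sign between the tissues, and for IgA the gap was small. Ileum was higher for 9 of 9 measured genes in G181R (48.0% of all genes were), with a median of 1.52. In wild-type it was higher for 9 of 10 (46.6% of all genes were), with a median of 0.76. At least 2-fold higher in ileum were 5 of 9 in G181R, against 7.30% of all measured genes, and 4 of 10 in wild-type, against 7.41%. Igha stood at 0.39 in G181R and 0.24 in wild-type, and Jchain at 0.65 and 0.61. Sdc1 had the widest gap of the measured plasma cell genes in wild-type and stood at 1.82 in G181R and 2.26 in wild-type, and Cd38 stood at 2.33 and 1.65. Ighg2c stood at 3.02 in G181R and 1.62 in wild-type, between Igha and Ighd, and its printed probe at 1.95 and 0.53.

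**Figure D4:**
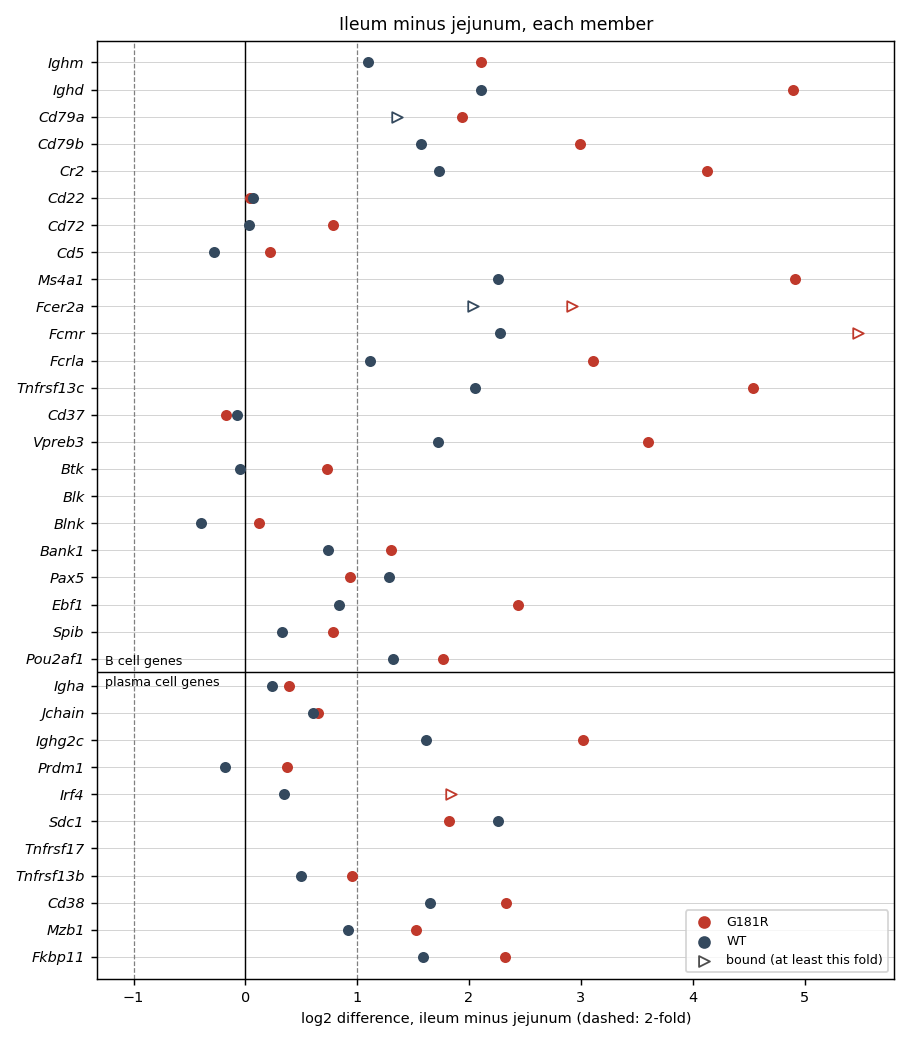
Log2 difference in signal, ileum minus jejunum, of each member in G181R mice (red) and in wild-type mice (dark blue), with open triangles for bounds. The red points of Ms4a1, Ighd, Tnfrsf13c and Cr2 lie between 4.13 and 4.92, to the right of the blue ones, while Igha, Jchain, Cd22 and Cd37 lie between -0.17 and 0.65 in both genotypes.

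Genes that share the surroundings of B cells were read from further lists. Of 20 genes of germinal centres and follicles, 9 of 17 measured were higher in G181R ileum, about the share of all genes (53.2%), with a median of 0.35. In jejunum 13 of 14 were lower in G181R (51.7% of all genes were), with a median of -0.34. In ileum Ccr7, which guides lymphocytes to lymphoid tissue, had 151.5 in G181R and 61.3 in wild-type (1.38), and Cxcl13, the chemokine that draws B cells into follicles, had 287.8 and 148.7 (1.03). The lowest of those measured in jejunum were Ccr6, a chemokine receptor of B cells and of follicle-forming cells (9.80 in G181R and 28.5 in wild-type, -1.58), Clu, a product of follicular dendritic cells and other cells (121.6 and 331.0, -1.48), and Cxcl13 (17.8 and 30.4, -0.80). Rgs13, a regulator of G protein signalling in germinal centre B cells, did not stand with Ccr7 and Cxcl13, at -1.12 in ileum and -0.15 in jejunum. Which cells of the scraped epithelium gave the Rgs13 signal was not tested. Tnfsf13b, which encodes the survival factor BAFF, stood at -0.82 in ileum. Cxcr4, a chemokine receptor of many leukocytes, was at least 1.76-fold lower in G181R jejunum, where it was not well above background.

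Of 26 other B cell genes, many of them shared with other leukocytes, 16 of 25 measured were higher in G181R ileum (median 0.11), against 53.2% of all genes. In jejunum 13 of 22 were lower in G181R (median -0.01), against 51.7% of all genes. Cxcr5, the receptor for CXCL13, stood at 0.86 and -0.67. Of those measured, Cd83, an activation marker, was lowest in jejunum at -1.03, Ikzf1, a lymphoid transcription factor, was highest in ileum at 1.1, and Cd40, a receptor for T cell help, was lowest in ileum at -1.04, with 9.44 in G181R and 20.6 in wild-type. Bach2, a repressor of plasma cell formation, went the other way, at -0.75 in ileum and 0.49 in jejunum.

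Of 20 other plasma cell genes, largely of the secretory pathway that epithelium shares, 10 of 18 measured were higher in G181R ileum (median 0.17), about the share of all genes (53.2%). In G181R jejunum 11 of 18 were higher (median 0.07), against 48.3% of all genes. Xbp1, the factor that expands the secretory pathway, stood at 0.74 in ileum and 0.58 in jejunum, and Creld2, a chaperone of that pathway, at 0.99 and 0.54. The other 8 measured in ileum were lower in G181R. Tram2, a protein of the endoplasmic reticulum, was lowest there at -1.13, with 95.5 in G181R and 220.4 in wild-type, and Ell2, an elongation factor that favours secreted antibody mRNA, stood at -0.47 in ileum and -0.42 in jejunum. Of the 11 other immunoglobulin genes 9 were on the array and 6 measured, with a median of 0.09 in both tissues. Of the light chains, Igkc stood at 0.42 in ileum and 0.25 in jejunum and Iglc1 at -0.22 and -0.20. Variable segments of antibody genes, listed after the files were seen, made 193 names. Of these, 89 of 108 measured were higher in G181R ileum (53.2% of all genes were), with a median of 0.38. At least 2-fold higher there were 11, against 2.0% of all measured genes. In G181R jejunum 75 of 106 were higher (48.3% of all genes were), with a median of 0.12. The segments were dim, with a median signal over all 193 of 17.5 in G181R ileum and 12.0 in wild-type ileum. It was 16.4 in G181R jejunum and 10.2 in wild-type jejunum, while the lowest signals well above background were 5.83 to 7.36. Both lambda segments, 2 of the 193, were lower in G181R ileum. Whether segments share sequence at their probes was not tested.

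Markers of other cells shared the signs of the B cell medians in part. The pan leukocyte, T cell and macrophage medians had those signs in both tissues, but the macrophage one lay near 0 in jejunum (-0.08). The smooth muscle, epithelial and M cell medians did not. In ileum, 11 of 12 measured pan leukocyte genes were higher in G181R (median 0.43), against 53.2% of all genes. Their summed signal was 6199 in G181R and 5332 in wild-type. Smooth muscle markers were far lower there, 11 of 11 measured below 0 with a median of -2.51 and sums of 7719 and 19545. At least 2-fold lower were 9 of these 11, against 3.21% of all measured genes. In jejunum, 11 of 13 pan leukocyte genes were lower in G181R (median -0.19), with sums of 5636 and 6260. There 11 of 12 genes of the T cell receptor complex were lower too (median -0.29), with sums of 4544 and 5789. Of all measured genes, 51.7% were lower in G181R jejunum. Smooth muscle markers differed little in jejunum, 10 of 11 above 0 (48.3% of all genes were) with a median of 0.17. Of the smooth muscle markers Lmod1 was not well above background in G181R ileum, of the pan leukocyte ones Cd53 in wild-type ileum, and of the T cell ones Ctla4 on any array. Epithelial markers had medians of -0.04 in ileum and 0.03 in jejunum and were well above background on 4 arrays for 12 of 12 genes. Of macrophage and dendritic cell genes, 11 of 13 measured were higher in G181R ileum (median 0.26), against 53.2% of all genes. In jejunum 8 of 15 were lower in G181R (median -0.08), about the share of all genes (51.7%). The T cell list had 7 of 11 higher in G181R ileum (median 0.16), against 53.2% of all genes. The medians for M cell genes were 0.11 in ileum and 0.17 in jejunum. The part of these cells in the B cell and plasma cell results was not tested.

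**Figure D5:**
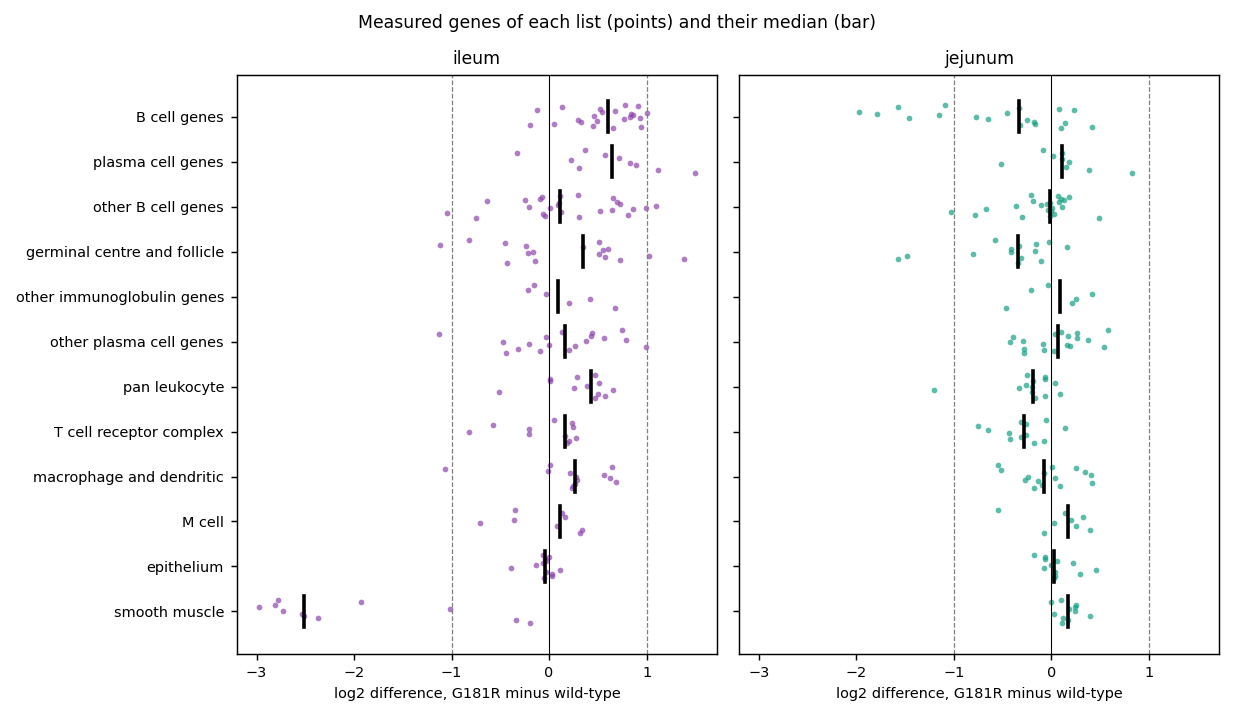
Log2 difference in signal, G181R minus wild-type, of each measured gene (points) and the median (bar) of 12 lists, in ileum on the left and in jejunum on the right. The B cell list lies mostly right of 0 in ileum (median 0.60) and left of 0 in jejunum (-0.33), the follicle list lies on both sides of 0 in ileum (9 of 17 right, median 0.35) and mostly left in jejunum (-0.34), epithelial markers lie at 0 in both, and smooth muscle markers lie far left in ileum alone.

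The 6 B cell genes that were at least 2-fold lower in G181R jejunum were dim there. Their signals were between 7.07 and 22.6 in G181R and between 15.4 and 76.4 in wild-type, while the lowest signal well above background was 5.83 and 7.36. With normexp background correction, which adds an offset of 50, these 6 differences kept their sign but lay between -0.78 and -0.14, and 0 of the 6 reached 2-fold. Cd38 was little altered by it, at 1.48 in ileum and 0.77 in jejunum.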

How the data were processed

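RNA of 4 pools was read on 4 arrays of 1 slide in 1 scan, per the file headers. The authors' scanner files hold intensity values that Agilent Feature Extraction 11.5.1.1 corrected for background, per the file headers and the submitters' processing notes, with a software error for each spot. They also hold other values, deposited flags of 0 or 1 that mark saturation, outliers and signal well above background. The deposited table of log2 values served as an alternative alone, since 2356 of its probes hold 1 fill value per array.

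From there, spots of a probe were averaged as log2 intensity, and each array's 75th percentile was subtracted (Python 3.11.15, pandas 2.3.3, NumPy 2.4.6). A gene was represented by the probe brightest on average, was measured where each of the arrays compared had it well above background, and was counted from a fold of 2. Where 1 array alone was above background, the fold is "at least", against the higher of the probe's own signal and the lowest signal well above background on the other array. Symbols came from the RefSeq accession (32989 probes), the description (224) or the array design (23392), and positions are those of the files in mm9. Normexp background correction used limma 3.58.1 in R 4.3.3. The counting was tested on simulated data. The members, the lists and the roles were chosen with earlier results of these data known. Every member is named, as are up to 3 of the highest and lowest genes of another list, and some genes that this rule allows are not reported here. With 1 array per group no p-value was computed, and precision is limited by how few arrays there are.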

Additional observations from a re-analysis of the deposited data

Results flagged for a closer look

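In 10 of the 28 members measured on 4 arrays, the genotype difference, G181R minus wild-type, was above 0 in ileum and below 0 in jejunum, and the 2 values lay more than 1 apart on the log2 scale. Of all 20540 genes measured in both tissues, 1.27% did the same. Fcmr and Irf4, which were higher in G181R ileum and have bounds alone in jejunum, are not counted. With 1 array per group the gap was not tested. The ileal difference minus the jejunal one was 2.79 for Ighd, 2.66 for Ms4a1, 2.49 for Tnfrsf13c, 2.39 for Cr2, 2.0 for Fcrla, 1.87 for Vpreb3, 1.60 for Ebf1, 1.42 for Cd79b, 1.40 for Ighg2c and 1.01 for Ighm. Of these 10, Ighg2c alone comes from the plasma cell list.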

How the results depend on the processing

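With 1 array per group, the results rest on 4 hybridisations, and dim signals limit the jejunal ones most. None of the medians below changed sign under an alternative. Normexp background correction, which shrinks differences of dim probes by its offset, moved the B cell median, G181R minus wild-type, to 0.38 in ileum and -0.14 in jejunum, and, ileum minus jejunum, to 0.69 in G181R and 0.30 in wild-type. It moved the plasma cell median to 0.37 for G181R minus wild-type in ileum, and, ileum minus jejunum, to 0.67 in G181R and 0.37 in wild-type. With it 0 B cell genes were 2-fold lower in G181R jejunum, and 0 B cell and 1 plasma cell genes were 2-fold higher in G181R ileum. Of 41 differences of members past 2-fold in any comparison, 20 stayed past it and 0 changed sign. With the mean of all probes, the B cell medians were 0.51 for genotype in ileum and 0.89 between tissues in wild-type, the plasma cell median between tissues in wild-type was 0.85, and 0 B cell genes were 2-fold higher in G181R ileum. Without a filter on dim probes, the B cell medians were -0.40 for genotype in jejunum and 1.93 between tissues in G181R, the plasma cell medians 0.72 for genotype in ileum and 0.61 between tissues in wild-type, and 2 B cell genes were 2-fold higher in G181R ileum. With probes well above background on 4 arrays, the B cell median between tissues in G181R was 1.77, and the plasma cell medians were 0.57 for genotype in ileum and 0.92 between tissues in wild-type. The deposited value table gave 1.77 for the B cell median between tissues in G181R. Quantile normalization gave 1.17 for B cell and 0.82 for plasma cell genes between tissues in wild-type. At a 1.5-fold threshold, 11 B cell and 5 plasma cell genes were higher in G181R ileum, against 6.79% of all measured genes. The cause of a shift was not tested for any setting. No paired analysis was possible because the labels give no replicates.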
